A study of Saccharomyces cerevisiae with 10 samples.

Results

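The cytosolic small subunit ribosomal protein genes of Saccharomyces cerevisiae (the RPS genes) were followed over 5 haploid genotypes. Members were all genes whose annotated symbol was RPS followed by a number and an optional A or B. The annotation held 56 such genes in 32 families, of which 24 were present as an A and a B copy and 8 as a single copy. A probe set was available for 52 of the 56 genes, among 5449 S. cerevisiae genes tested, and no filter on low values was applied, so all 52 were tested. The other 4 had no probe set of their own name and were not analysed here, which left 21 pairs in which each copy had its own probe set.

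The small ribosomal subunit binds the mRNA and pairs its codons with tRNAs. Its protein shell is built on the small subunit rRNA, and most of its proteins are encoded in budding yeast by a pair of near-identical genes left from an ancient genome duplication. These genes belong to the most strongly transcribed genes of a growing yeast cell, and they are turned up and down together with nutrient supply through the TOR and protein kinase A pathways, acting on factors such as Rap1, Fhl1, Ifh1 and Sfp1. The copies of a pair often differ in how much of the shared protein they supply, and in their introns, promoters and untranslated ends.

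All strains were haploid, had the background named Sce3044, and were harvested as total RNA in logarithmic growth in a defined low glucose medium with 0.25% dextrose, at an optical density near 0.2 after about 17 h. The strain called Ancestral carried no evolved allele. The others carried evolved alleles of MKT1 (MKT1e), of MDS3 (MDS3e), of MDS3 and MKT1 (MDS3e MKT1e) or of PMA1 and MKT1 (PMA1e MKT1e). No strain carried the PMA1 allele alone, and which base changes define the alleles was not looked up here. MKT1 encodes a regulator of mRNAs, MDS3 a protein tied to TOR signalling and to the repression of early meiotic genes, and PMA1 the pump that moves protons out of the cell. Each genotype had 2 arrays, labelled as biological replicates, so every mean below has n = 2, and p-values measure the spread between these arrays.

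The deposited values were linear array intensities, described here as log2(intensity + 16). Array medians over all genes lay between 7.51 and 7.61 on that scale. Replicate arrays correlated across genes at 0.996 to 0.998. At the bright end the arrays fell apart by genotype. The 99th percentile of intensity was 1985 to 2097 on the 4 arrays of strains with the MDS3 allele and 2359 to 2603 on the other 6, and the brightest gene reached 2388 to 2602 against 3042 to 3479. The levels of the 3 evolved genes do not test the labels, since the alleles are variants; MKT1 itself was lower in MKT1e, by a log2 difference of -0.35 ± 0.11 (SE, adjusted p = 0.039, limma). All 6 markers of MATa cells, such as the pheromone receptor gene STE2, read 8.75 to 10.92 on every array. MF(ALPHA)1 and MF(ALPHA)2, the pheromone genes of MATalpha cells, read 4.02 to 4.50, beside a background limit of 4.20 set from probe sets of another species. STE3 and SAG1, the other MATalpha markers, read 5.29 to 5.58 and 6.43 to 6.71, and the 4 meiosis markers IME1, IME2, SPO11 and NDT80 read 4.74 to 5.94.

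The RPS genes sat at the top of the intensity scale. Mean levels over the 10 arrays ran from 9.80 for RPS9A, which encodes a protein of the mRNA entry side of the subunit, to 11.48 for RPS31, whose product is made as a fusion with ubiquitin and which was the brightest of all 5449 genes. Of the 52 members, 25 were among the 100 brightest genes, 40 among the 200 brightest and 51 among the 545 brightest. RPS9A lay just outside that last group. A brighter probe set need not mean more transcript, so levels of different probe sets are given only as signal. The spread of a member over the 10 arrays was 0.42 in the median, from 0.16 for RPS14B to 1.05 for RPS19A.

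**Figure D1:**
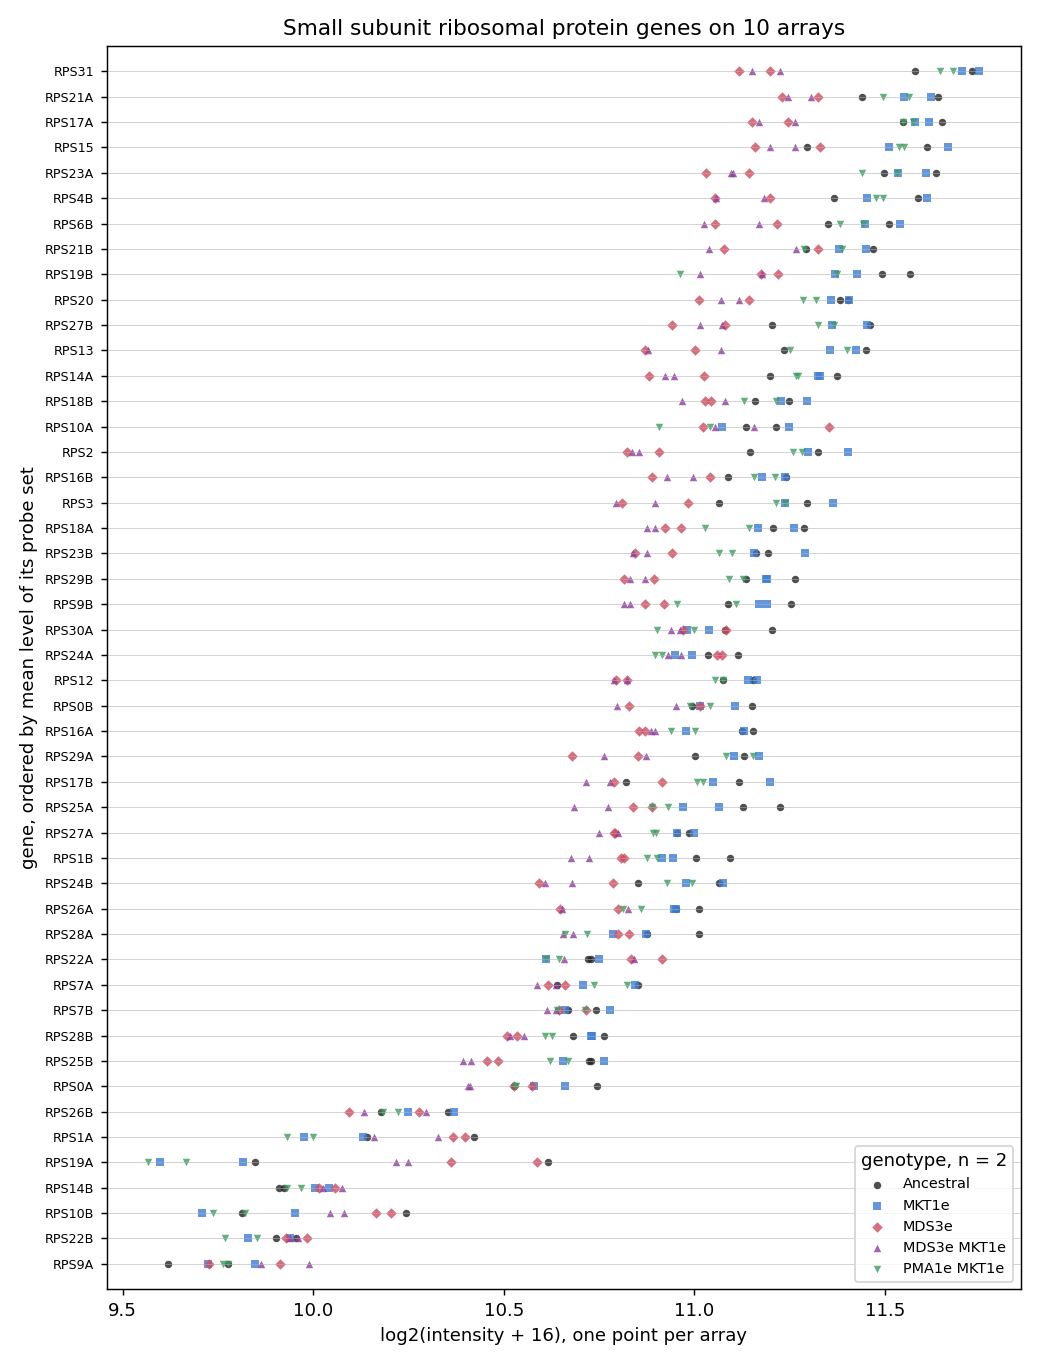
Level of RPS genes on each of the 10 arrays, as log2(intensity + 16), with genes ordered by mean level and 2 points per genotype. Red and purple points, the 4 arrays with the MDS3 allele, lie to the left for most bright genes and not for the dimmest, such as RPS19A and RPS14B.

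No RPS gene passed the test when MKT1e was the only evolved allele. In MKT1e minus Ancestral, 0 of 52 members rose and 0 fell, while 11.8% of all genes rose and 8.48% fell (limma, Benjamini-Hochberg adjustment over 5449 genes, adjusted p under 0.05, as in all comparisons below). The median member difference was 0.01 and the median over all genes -0.01. At an unadjusted p under 0.05 there were 4 members, all with lower means in MKT1e: RPS1A, RPS1B, RPS19A and RPS25A. The most distant was RPS19A, which encodes a protein of the subunit's head, at -0.52 ± 0.19 (adjusted p = 0.079).

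The evolved MDS3 allele went with lower signal for most of the family. In MDS3e minus Ancestral, 30 of 52 members fell and 0 rose, against 10.7% and 14.5% of all genes. The median member difference was -0.24, or 0.846 of the Ancestral value on the scale of intensity plus 16, and the median over all genes was 0.03. With the MKT1 allele also present (MDS3e MKT1e minus Ancestral), 36 members fell and 1 rose, against 16.7% and 21.9% of all genes, with a median of -0.26. Read in the MKT1e background (MDS3e MKT1e minus MKT1e), 32 fell and 0 rose, against 11.5% and 15%, with a median of -0.28. These counts depend on how bright probe sets are scaled: after quantile normalization 2, 1 and 1 members remained lower in the 3 comparisons, as described further on.

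RPS31 illustrates the shape of this difference. It read 11.58 and 11.73 in Ancestral, 11.70 and 11.75 in MKT1e, 11.68 and 11.65 in PMA1e MKT1e, 11.12 and 11.20 in MDS3e, and 11.22 and 11.15 in MDS3e MKT1e. The 4 arrays with the MDS3 allele were all below the other 6, with no overlap. The difference was -0.49 ± 0.06 for MDS3e minus Ancestral (adjusted p = 7.3e-04), -0.46 ± 0.06 for MDS3e MKT1e minus Ancestral (adjusted p = 3.5e-04) and -0.54 ± 0.06 for MDS3e MKT1e minus MKT1e (adjusted p = 3.1e-04).

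RPS23A, which encodes a protein of the decoding centre, read 11.50 and 11.63 in Ancestral, 11.53 and 11.61 in MKT1e, 11.53 and 11.44 in PMA1e MKT1e, 11.03 and 11.14 in MDS3e, and 11.10 and 11.10 in MDS3e MKT1e. Here too the 4 arrays with the MDS3 allele lay apart from the other 6. The difference was -0.48 ± 0.07 in MDS3e (adjusted p = 0.0012) and -0.47 ± 0.07 in MDS3e MKT1e (adjusted p = 4.6e-04), each against Ancestral. The values come from a probe set whose name marks it as reading related genes as well. A second probe set, specific to RPS23A, gave -0.05 ± 0.06 in MDS3e (adjusted p over all probe sets 0.53), so the fall cannot be assigned to this copy.

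Among the other large falls in MDS3e minus Ancestral, RPS13, which encodes a single-copy body protein, differed by -0.41 ± 0.09 (adjusted p = 0.011). RPS17A, the A gene of a head protein, differed by -0.40 ± 0.06 (adjusted p = 0.0019). RPS2, whose product lines the mRNA entry channel, differed by -0.37 ± 0.07 (adjusted p = 0.0051). In MDS3e MKT1e minus Ancestral the largest falls after RPS23A and RPS31 were RPS25A at -0.45 ± 0.06 (adjusted p = 3.3e-04), RPS19B at -0.43 ± 0.11 (adjusted p = 0.012) and RPS2 at -0.39 ± 0.07 (adjusted p = 0.0017). RPS25A encodes a head protein used by some viral internal ribosome entry sites.

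The member that rose in MDS3e MKT1e was RPS9A. It read 9.78 and 9.62 in Ancestral, 9.85 and 9.72 in MKT1e, 9.78 and 9.76 in PMA1e MKT1e, 9.91 and 9.73 in MDS3e, and 9.86 and 9.99 in MDS3e MKT1e. The highest arrays were those of MDS3e MKT1e and 1 of MDS3e, and the MDS3e arrays overlapped those of Ancestral. The difference of 0.23 ± 0.08 for MDS3e MKT1e minus Ancestral had an adjusted p of 0.049, and 7 of the 10 fits that leave out 1 array did not call it.

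Looked at array by array, all 4 arrays with the MDS3 allele lay below all 6 others for 30 of the 52 members, compared with 10.3% of all genes, and above them for 0 members, compared with 12.7% of all genes. This way of counting was chosen after the values were seen. The same 4 and 6 arrays also differed in the 99th percentile of intensity given above.

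Single-copy members were lower with the MDS3 allele too. A probe set was present for 7 of them (RPS2, RPS3, RPS12, RPS13, RPS15, RPS20 and RPS31). Of these, 6 fell in MDS3e minus Ancestral with a median of -0.31, against 10.7% of all genes. In MDS3e MKT1e minus Ancestral 6 fell, against 16.7% of all genes, with a median of -0.34. In MDS3e MKT1e minus MKT1e 7 fell, against 11.5% of all genes, with a median of -0.42. After quantile normalization RPS31 alone of the 7 remained lower in both comparisons with Ancestral, and RPS2 alone in that with MKT1e. RPS15, which encodes a head protein near the decoding site, was the member without a call against Ancestral, at -0.21 ± 0.10 in MDS3e (adjusted p = 0.15). It read 11.29 and 11.61 in Ancestral, where the replicates were wide apart, and 11.16 and 11.33 in MDS3e. RPS3, which encodes a head protein at the mRNA entry site, fell by 0.28 ± 0.09 in MDS3e (adjusted p = 0.039). RPS12 (-0.31 ± 0.05, adjusted p = 0.0030) and RPS20 (-0.31 ± 0.06, adjusted p = 0.0050), further head proteins, fell by similar amounts. No single-copy member was called in MKT1e or in PMA1e MKT1e against Ancestral; 0 of the 7 had an unadjusted p under 0.05 in either comparison (limma).

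By place in the subunit, 12 of 21 head members fell in MDS3e minus Ancestral with a median of -0.28, and 18 of 31 body and platform members fell with a median of -0.23. Families found in all domains of life had 14 of 23 members lower with a median of -0.28, and the remaining families 16 of 29 with a median of -0.22. Of the A copies 12 of 22 fell with a median of -0.21, and of the B copies 12 of 23 with a median of -0.22. Of all genes 10.7% fell in this comparison, and after quantile normalization 2 of the 52 members remained lower. The groups overlap in members and their differences were not tested against each other.

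The MDS3 allele was read in 2 backgrounds that share no array, MDS3e minus Ancestral and MDS3e MKT1e minus MKT1e. Across the 52 members the differences correlated with r = 0.92 and rho = 0.86, a description over genes on the same arrays. Of the members 44 were negative in both, 7 positive in both and 28 called lower in both. Of all genes 10.7% were called lower in the first comparison and 11.5% in the second. The share called lower in both is not given here. The difference between these differences (the MDS3e by MKT1e interaction) called 0 members, against 0.0734% of all genes higher and 0.312% lower. At an unadjusted p under 0.05 there was 1 member. After quantile normalization the correlation was 0.83, with 21 members negative in both, 23 positive in both and 0 called lower in both.

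**Figure D2:**
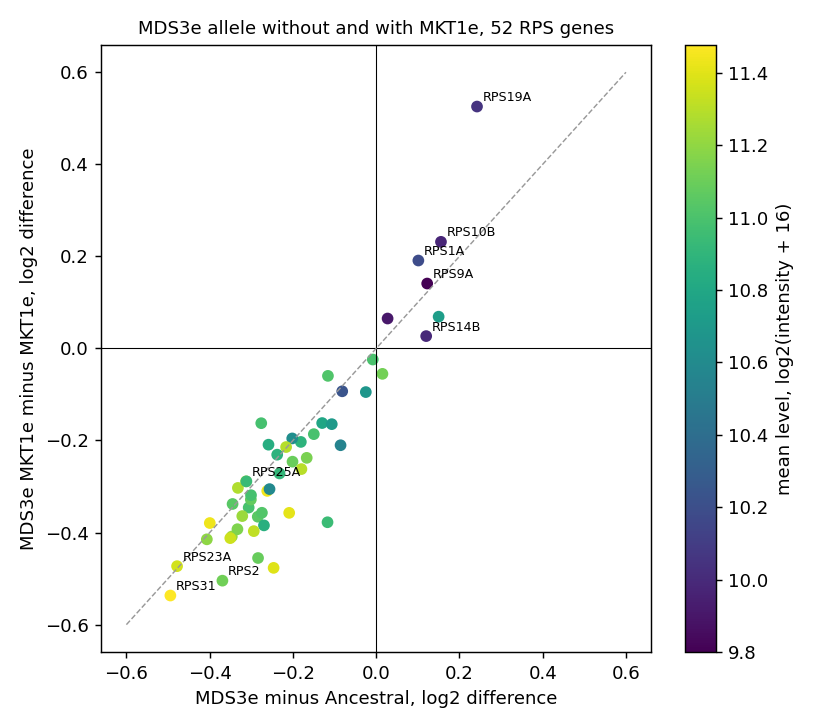
Log2 difference with the MDS3 allele in the Ancestral background (horizontal) and in the MKT1e background (vertical) for 52 RPS genes, with colour for the mean level and the dashed line for equal differences. Most genes lie in the lower left part, the brightest farthest down, while the positive genes are dim ones such as RPS19A, RPS10B and RPS1A.

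No member was called when the MKT1 allele was added to MDS3e. MDS3e MKT1e minus MDS3e called 0 members in either direction, against 11% of all genes higher and 6.24% lower, with a median of -0.03 and 3 members (RPS24A, RPS25A and RPS28A) at an unadjusted p under 0.05.

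In the strain with evolved PMA1 and MKT1 alleles few members were lower, a count not far above the share of all genes. In PMA1e MKT1e minus Ancestral 6 of 52 members fell and 0 rose, against 7.32% and 14.3% of all genes. The median was -0.07. They were RPS19A (-0.61 ± 0.19, adjusted p = 0.045), RPS19B (-0.36 ± 0.11, adjusted p = 0.044), RPS1A (-0.32 ± 0.09, adjusted p = 0.038), RPS25A (-0.27 ± 0.06, adjusted p = 0.011), RPS28A (-0.25 ± 0.06, adjusted p = 0.015) and RPS24A (-0.17 ± 0.05, adjusted p = 0.045). RPS1A encodes a platform protein near the mRNA exit, and RPS28A a small protein at that exit whose B copy is known for regulating its own mRNA. After quantile normalization 0 members were called lower and 0 higher, against 10.7% and 11.8% of all genes, and 0 of the 6 were called in every fit that leaves out 1 array.

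The RPS19A values in this comparison rest on 1 Ancestral array. RPS19A read 10.62 and 9.85 in Ancestral, 9.82 and 9.60 in MKT1e, 9.67 and 9.57 in PMA1e MKT1e, 10.59 and 10.36 in MDS3e, and 10.22 and 10.25 in MDS3e MKT1e. Its Ancestral SD of 0.54 was the largest of any member and genotype. The difference of -0.61 became -0.23 without Ancestral replicate 1 and -1.0 without Ancestral replicate 2. RPS10B, which encodes a head protein, and RPS1A had the same order of the Ancestral arrays, with 10.24 and 9.81 for RPS10B and 10.42 and 10.14 for RPS1A. For RPS19B a second probe set, which reads related genes too, gave 0.03 ± 0.08 in PMA1e MKT1e minus Ancestral, where the one used gave -0.36 ± 0.11. RPS24A was read by a probe set that also reads related genes, and its other probe set gave -0.09 ± 0.06 in this comparison (adjusted p over all probe sets 0.29).

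The PMA1 allele itself can be read only in the MKT1e background. In PMA1e MKT1e minus MKT1e 0 members were called, against 0.00% of all genes higher and 0.0184% lower, with 2 members (RPS23B and RPS28A) at an unadjusted p under 0.05. The differences were small and mostly of one sign: 51 of 52 members were negative, from -0.23 for RPS19B to 0.00 for RPS7A, with a median of -0.07 beside 0.02 over all genes. The other genes among the 545 brightest, without ribosomal protein genes, had a median of -0.04 there.

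The size of the fall with the MDS3 allele followed the brightness of the probe set. Across the 52 members the log2 difference correlated with the mean level at r = -0.79 for MDS3e minus Ancestral and r = -0.80 for MDS3e MKT1e minus MKT1e, as a description over genes that share the arrays. In PMA1e MKT1e minus Ancestral the same correlation was 0.33 and in MKT1e minus Ancestral 0.39. In the dimmest members the differences were small or positive without passing the test, as in RPS22B at 0.03 ± 0.06, RPS14B at 0.12 ± 0.05 and RPS10B at 0.16 ± 0.12 in MDS3e.

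Genes outside the ribosome behaved alike at the brightness of most members. When all genes were put into 10 groups by mean level, leaving out ribosomal protein genes, groups 1 to 8 had medians between 0.00 and 0.06 in MDS3e minus Ancestral, and the brightest group had -0.13, with 150 of its 422 genes lower. The 545 genes of the brightest group, ribosomal protein genes included, were then divided into 5 finer groups of 109 genes, a step added after the data were seen. From the dimmest to the brightest of these, RPS members had medians of 0.14 (n = 4), 0.01 (n = 2), -0.20 (n = 3), -0.21 (n = 14) and -0.30 (n = 28). The other genes had -0.03 (n = 104), -0.08 (n = 106), -0.15 (n = 101), -0.22 (n = 65) and -0.32 (n = 46). In the brightest of them 20 of 28 RPS members and 37 of 46 other genes were lower. For MDS3e MKT1e minus MKT1e the brightest values were -0.36 for RPS members and -0.38 for the others. In the 2 brightest of these groups, which hold 14 and 28 members, the family fell by about as much as other genes of its brightness. In the 2 dimmest, which hold 4 and 2 members, its medians were above those of the other genes in both comparisons. The groups were not tested against each other, and whether the range of the arrays or the transcripts changed cannot be told apart with these values.

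**Figure D3:**
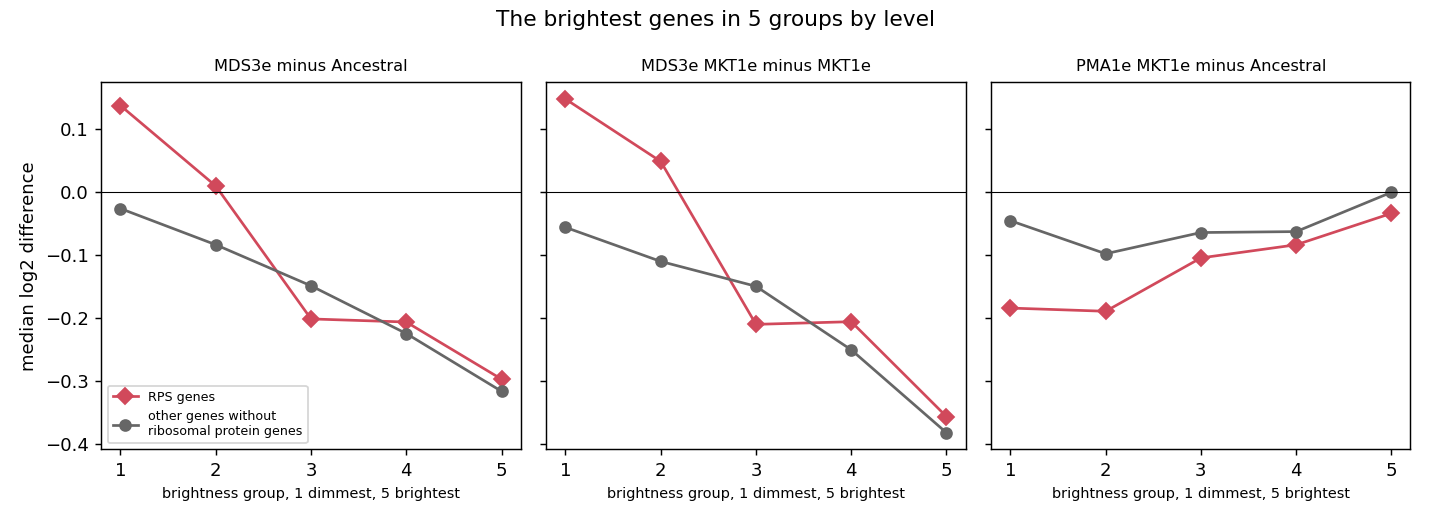
Median log2 difference in 5 groups of the 545 brightest genes, from the dimmest (1) to the brightest (5), for RPS genes (red) and for other genes without ribosomal protein genes (grey), in 3 comparisons. In the comparisons with the MDS3 allele both lines go down to -0.30 and -0.32 or -0.36 and -0.38, with RPS genes above the others in groups 1 and 2. In PMA1e MKT1e minus Ancestral the brightest group stands nearest to 0.

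Replicate arrays of the same genotype also moved as a block across this family. The second array was higher for 36 of 52 members in Ancestral, 37 in MKT1e and 44 in MDS3e, and the first for 31 in MDS3e MKT1e and 44 in PMA1e MKT1e. The median SD between replicates over the members was largest in Ancestral, at 0.096, smallest in PMA1e MKT1e, at 0.033, and 0.063 in MKT1e, 0.038 in MDS3e MKT1e and 0.059 in MDS3e.

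Scaling that aligns the bright end of the arrays removed most calls. Quantile normalization gives all arrays the same distribution. After it, 2 members rose (RPS22A and RPS24A) and 2 fell (RPS23A and RPS31) in MDS3e minus Ancestral, with a median of 0.01, against 10% of all genes higher and 10.3% lower. In MDS3e MKT1e minus Ancestral 3 rose (RPS9A, RPS14B and RPS22A) and RPS31 fell, with a median of 0.02, against 16.4% and 17.6%. In MDS3e MKT1e minus MKT1e 3 rose (RPS22A, RPS24A and RPS30A) and RPS2 fell, with a median of 0.02, against 9.51% and 10.4%. RPS23A and RPS24A were read by probe sets that also read related genes. As deposited, their specific probe sets gave -0.05 ± 0.06 and -0.33 ± 0.06 in MDS3e minus Ancestral. These calls thus cannot be assigned to those copies. After quantile normalization the correlation with the mean level was -0.40 for MDS3e minus Ancestral. Array by array, 7 members had all 4 arrays with the MDS3 allele below the other 6 after quantile normalization, against 10.3% of all genes, and 6 had them above, against 9.41%.

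**Figure D4:**
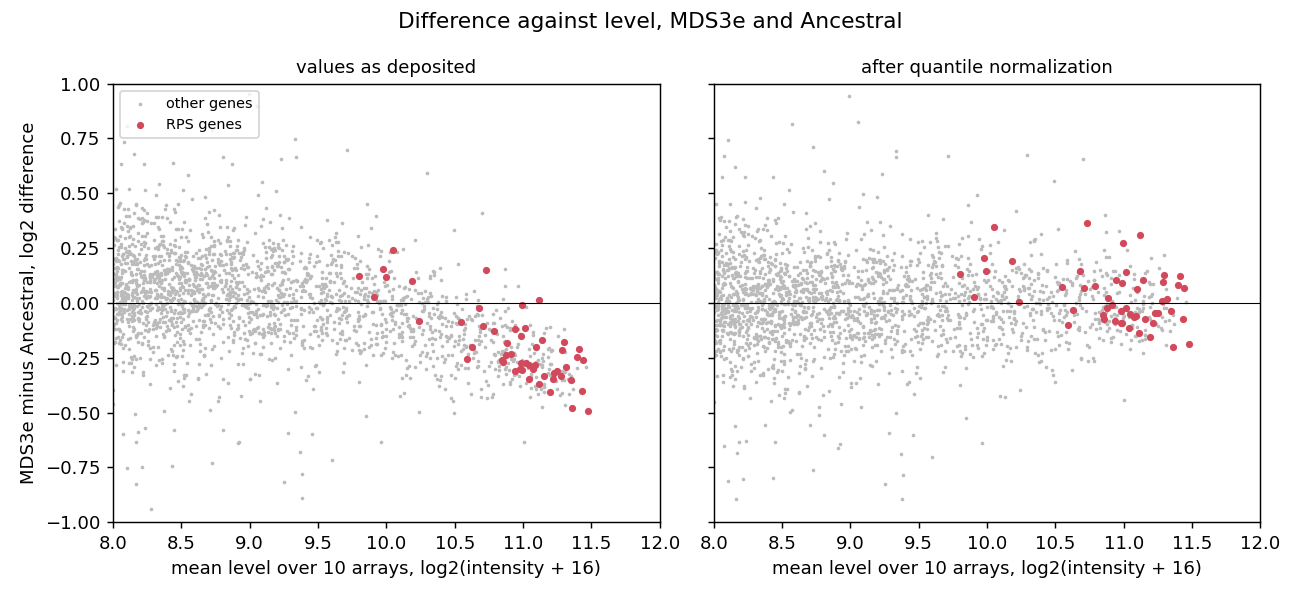
Log2 difference MDS3e minus Ancestral against mean level for RPS genes (red) and other genes (grey), for the deposited values (left) and after quantile normalization (right). Genes dimmer than the start of the axis, and a few differences beyond its ends, are not drawn; on the left the whole cloud bends down at the bright end, and on the right the RPS genes lie on either side of 0 with a median of 0.01.

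A few calls stood in the same direction under the deposited scale, median centring, quantile normalization and cyclic loess. In MDS3e minus Ancestral these were RPS31 and RPS23A, both lower, in MDS3e MKT1e minus Ancestral RPS31, and in MDS3e MKT1e minus MKT1e RPS2. After quantile normalization the difference of RPS31 was -0.19 in MDS3e (adjusted p = 0.021) and -0.14 in MDS3e MKT1e (adjusted p = 0.048) against Ancestral. That of RPS23A in MDS3e was -0.20 (adjusted p = 0.022), from the probe set that also reads related genes, so it cannot be assigned to this copy. RPS2 read 11.15 and 11.33 in Ancestral, 11.30 and 11.40 in MKT1e, 11.28 and 11.26 in PMA1e MKT1e, 10.82 and 10.91 in MDS3e, and 10.86 and 10.84 in MDS3e MKT1e, with the 4 arrays of the MDS3 allele below the others. For MDS3e MKT1e minus MKT1e it differed by -0.50 ± 0.07 as deposited (adjusted p = 7.6e-04) and by -0.19 after quantile normalization (adjusted p = 0.021).

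RPS22A, the A gene of a body protein, was among the members called higher after quantile normalization. It read 10.73 and 10.72 in Ancestral, 10.75 and 10.61 in MKT1e, 10.61 and 10.64 in PMA1e MKT1e, 10.84 and 10.92 in MDS3e, and 10.66 and 10.84 in MDS3e MKT1e. Both MDS3e arrays were above both Ancestral arrays. Its difference in MDS3e minus Ancestral was 0.15 ± 0.07 as deposited (adjusted p = 0.16) and 0.37 after quantile normalization (adjusted p = 0.016).

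The test over all 5 genotypes (limma F-test) called 38 of 52 members, against 55.0% of all genes. RPS31 had the smallest adjusted p, 6.6e-05, before RPS23A at 2.1e-04 and RPS2 at 3.3e-04. After quantile normalization 9 members were called, against 53.9% of all genes, led by RPS24A (adjusted p = 0.0027), RPS22A (0.0074) and RPS2 (0.0105). The others were RPS19A, RPS1A, RPS10A, RPS30A, RPS31 and RPS23A. Probe sets that also read related genes gave the values of RPS24A, RPS10A and RPS23A, among others.

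The A and B copies of a pair were compared as the log2 difference A minus B within each array, so that a change common to both probe sets drops out. Over the 5 genotypes 6 of 21 RPS pairs passed the F-test, against 30.8% of the 52 pairs in the whole table whose names differ by A and B, over which p-values were adjusted. Among them were RPS14 (adjusted p = 9.9e-04), RPS1 (0.0011), RPS19 (0.011), RPS9 (0.017) and RPS24 (0.019). The share is close to that of all pairs. Of these, RPS14, RPS1, RPS19 and RPS24 passed under all 4 scalings. With the mean of all probe sets RPS24 did not pass (adjusted p = 0.13, F-test). Nor did it without probe sets reading related genes (0.65). RPS14, RPS1 and RPS19 passed in both. After quantile normalization RPS14 and RPS19 each had an adjusted p of 0.0497, close to the threshold, and RPS9 did not pass (0.18).

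RPS14 encodes a platform protein, and in yeast its product is known to limit splicing of RPS14B. RPS14A minus RPS14B was 1.28 and 1.46 in Ancestral, 1.32 and 1.29 in MKT1e, 1.34 and 1.30 in PMA1e MKT1e, 0.87 and 0.97 in MDS3e, and 0.92 and 0.85 in MDS3e MKT1e. All 4 arrays with the MDS3 allele were below all 6 others. The pair difference changed by -0.45 ± 0.08 in MDS3e (adjusted p = 0.0035) and -0.48 ± 0.08 in MDS3e MKT1e (adjusted p = 0.0014), each against Ancestral, where 19.2% and 25% of the 52 pairs passed. RPS14A read 10.88 to 11.03 on the 4 arrays with the MDS3 allele and 11.20 to 11.37 on the others, and RPS14B 10.02 to 10.07 and 9.91 to 10.04. The A copy alone was called, at -0.33 ± 0.07 in MDS3e (adjusted p = 0.0080). After quantile normalization the pair difference was -0.22 ± 0.07 in MDS3e (adjusted p = 0.053) and -0.24 ± 0.07 in MDS3e MKT1e (adjusted p = 0.033).

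RPS1 encodes the platform protein near the mRNA exit. RPS1A minus RPS1B was -0.67 and -0.86 in Ancestral, -0.81 and -0.94 in MKT1e, -0.90 and -0.94 in PMA1e MKT1e, -0.44 and -0.42 in MDS3e, and -0.51 and -0.40 in MDS3e MKT1e. The arrays with the MDS3 allele were again on one side of all others. The change was 0.34 ± 0.08 in MDS3e against Ancestral (adjusted p = 0.014) and 0.42 ± 0.08 in MDS3e MKT1e against MKT1e (adjusted p = 0.0040), where 28.8% of the 52 pairs passed. After quantile normalization it was 0.21 ± 0.07 in the former, no longer called (adjusted p = 0.063), and 0.28 ± 0.07 in the latter (adjusted p = 0.033). RPS1B fell by 0.24 ± 0.05 in MDS3e (adjusted p = 0.011) and RPS1A differed by 0.10 ± 0.09 (adjusted p = 0.47).

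RPS19 encodes a head protein and RPS9 a body protein. RPS19A minus RPS19B was -0.95 and -1.64 in Ancestral, -1.55 and -1.83 in MKT1e, -1.71 and -1.40 in PMA1e MKT1e, -0.59 and -0.86 in MDS3e, and -0.80 and -0.93 in MDS3e MKT1e. The first Ancestral array lay just outside the values of the arrays with the MDS3 allele. The change was 0.83 ± 0.20 for MDS3e MKT1e minus MKT1e (adjusted p = 0.010) and 0.57 ± 0.20 for MDS3e minus Ancestral (adjusted p = 0.061). RPS9A minus RPS9B was -1.31 and -1.63 in Ancestral, -1.32 and -1.47 in MKT1e, -1.33 and -1.19 in PMA1e MKT1e, -0.96 and -1.20 in MDS3e, and -0.97 and -0.83 in MDS3e MKT1e. One MDS3e array thus overlapped the PMA1e MKT1e arrays. RPS9 was also the pair with opposite calls in MDS3e MKT1e minus Ancestral, where RPS9A rose and RPS9B, at -0.35 ± 0.07 (adjusted p = 0.0034), fell. Its pair difference changed by 0.58 ± 0.12 (adjusted p = 0.0061). Among the scalings the opposite calls held only for the deposited values. After quantile normalization and cyclic loess RPS9A was called higher and RPS9B was not called, and after median centring RPS9A was not called.

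RPS24, which encodes a body protein, changed mainly against MKT1e. RPS24A minus RPS24B was 0.26 and -0.03 in Ancestral, 0.02 and -0.13 in MKT1e, -0.08 and -0.03 in PMA1e MKT1e, 0.48 and 0.27 in MDS3e, and 0.25 and 0.36 in MDS3e MKT1e. The first Ancestral array lay among those with the MDS3 allele. The change for MDS3e MKT1e minus MKT1e was 0.36 ± 0.11 (adjusted p = 0.025). RPS24A was read by a probe set that also reads related genes. The other RPS24A probe set gave -0.33 ± 0.06 in MDS3e minus Ancestral (adjusted p over all probe sets 0.0033), where the one used gave -0.01 ± 0.05, and with it the pair no longer passed the F-test.

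**Figure D5:**
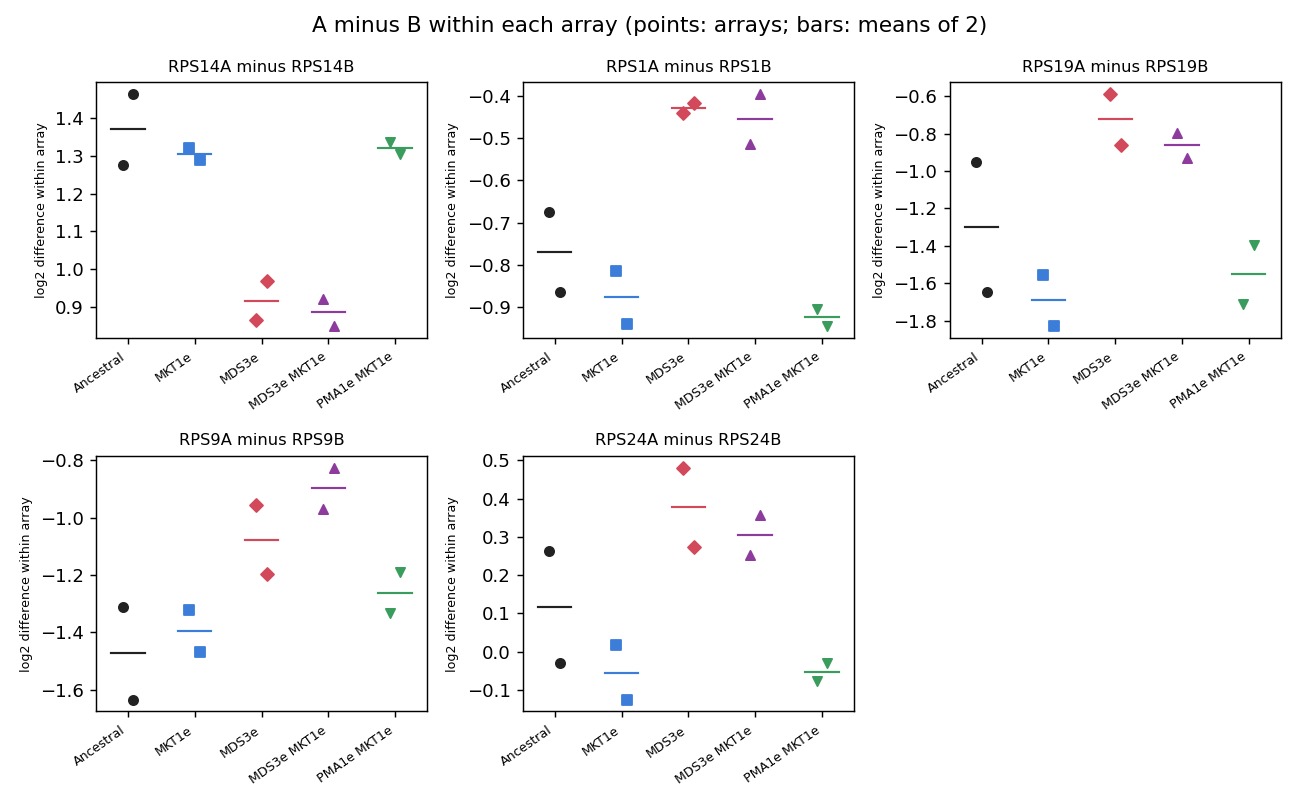
A minus B log2 difference within each array for 5 of the RPS pairs that passed the F-test, with points for arrays and bars for the means of 2 arrays; vertical axes differ between panels and do not start at 0. In RPS14 the 4 arrays with the MDS3 allele lie between 0.85 and 0.97, below the other 6 at 1.28 to 1.46, and in RPS1 they lie between -0.51 and -0.40, above the other 6.

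The copy that gained on its partner was mostly the dimmer one. Across the 21 pairs, the change in A minus B correlated with the gap in mean signal between the A and B probe sets at r = -0.80 in MDS3e minus Ancestral, -0.83 in MDS3e MKT1e minus Ancestral and -0.82 in MDS3e MKT1e minus MKT1e. After quantile normalization the values were -0.36, -0.44 and -0.49. In MDS3e minus Ancestral the dimmer copy gained in 16 of 21 pairs, and in 13 after quantile normalization. The gap was -1.23 for RPS19, -1.22 for RPS9, 1.16 for RPS14, -0.69 for RPS1 and 0.14 for RPS24. The 4 pairs of wide gap among these changed towards a smaller gap, and RPS24 widened. This relation was looked at after the pair values were seen, and these are descriptions without a test. RPS10, a pair with a gap of 1.14 whose probe sets both read related genes, changed by -0.14 in MDS3e and did not pass. Probe sets specific to each RPS10 copy gave the other direction, 0.19 ± 0.07 (adjusted p = 0.068, limma), so the brighter copy gained. That change was called after quantile normalization (0.39 ± 0.07, adjusted p = 0.0053) and cyclic loess (0.28 ± 0.07, adjusted p = 0.016). In each of these 19.6% of the 51 pairs passed.

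Taking the calls of the 2 copies together, both copies fell in 6 of 21 pairs in MDS3e minus Ancestral (among them RPS23, RPS25, RPS27 and RPS29), 1 copy in 10 and neither in 5. In MDS3e MKT1e minus Ancestral both fell in 9, 1 copy in 9 and neither in 3. In MDS3e MKT1e minus MKT1e the counts were 8, 7 and 6. Of all genes 10.7%, 16.7% and 11.5% fell in these comparisons, and the share over other pairs is not given here. After quantile normalization no RPS pair had both copies called lower in any of them. In PMA1e MKT1e minus Ancestral both copies fell only for RPS19, the A copy alone for RPS1, RPS24, RPS25 and RPS28, and neither copy in the other 16. Of all genes 7.32% fell in PMA1e MKT1e minus Ancestral. A call in 1 copy alone does not show that the copies differ. None of these 5 pairs passed the test of A minus B in that comparison, where 3.85% of the 52 pairs did.

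Probe sets reading related genes limit what can be said of single copies. Of the 52 members 10 were read by such a probe set, and 13 had more than 1 probe set. In MDS3e minus Ancestral the signs disagreed for 1 of the 13. Calls differed between probe sets of the same gene more widely. For RPS17B, RPS18B, RPS19B and RPS24A only the probe set not used was called lower, and for RPS23A only the one used. For others, such as RPS16A, RPS26A and RPS29B, both were called lower. When probe sets reading related genes were left out, 6 RPS pairs passed the F-test, against 29.4% of all pairs, with RPS23 (adjusted p = 0.017) in place of RPS24 (0.65).

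Genes for large subunit proteins gave medians close to these. Of 76 RPL and RPP genes, 41 fell and 2 rose in MDS3e minus Ancestral with a median of -0.22, 52 fell and 2 rose in MDS3e MKT1e minus Ancestral with a median of -0.26, and 8 fell in PMA1e MKT1e minus Ancestral. Of all genes 10.7% fell and 14.5% rose in the first, 16.7% and 21.9% in the second, and 7.32% fell in the third. After quantile normalization 3 fell and 8 rose in MDS3e, against 10.3% and 10% of all genes, and 7 fell and 9 rose in MDS3e MKT1e, against 17.6% and 16.4%. These counts after quantile normalization are near or below the shares of all genes.

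Bright genes for proteins bound to the small subunit fell as the RPS genes did, and 2 dimmer ones rose. ASC1, the yeast RACK1 scaffold on the head, changed by -0.28 ± 0.08 in MDS3e minus Ancestral (adjusted p = 0.027), and STM1, a clamp of idle ribosomes, by -0.30 ± 0.05 (adjusted p = 0.0025). After quantile normalization they stood at -0.06 and -0.02 and were not called. TMA46 and RBG1, partners in a translation-associated GTPase complex, rose by 0.47 ± 0.07 (adjusted p = 0.0012) and 0.28 ± 0.06 (adjusted p = 0.0075), and stood at 0.42 and 0.25 after quantile normalization, still called. GCN1, which senses stalled ribosomes for the Gcn2 kinase, was the fifth gene of that list and fell in MKT1e (-0.41 ± 0.07, adjusted p = 0.0022).

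Small subunit assembly factors, which process the rRNA and dock on the precursor subunit, included genes that rose with the MDS3 allele. Of 19 with a value, 8 rose and 0 fell in MDS3e minus Ancestral, against 14.5% and 10.7% of all genes, with a median of 0.20 beside 0.03 over all genes. The largest were KRR1 (0.51 ± 0.09, adjusted p = 0.0030), PNO1 (0.42 ± 0.05, adjusted p = 7.1e-04), NOB1, the nuclease that makes the last cut of the small subunit rRNA (0.40 ± 0.07, adjusted p = 0.0029), and EMG1 (0.38 ± 0.07, adjusted p = 0.0045). In MDS3e MKT1e minus Ancestral 13 rose and 0 fell, against 21.9% and 16.7% of all genes, with a median of 0.28, among them ENP1 at 0.48 ± 0.10 (adjusted p = 0.0044). After quantile normalization 7 rose in MDS3e, against 10% of all genes, and 9 rose and 1 fell in MDS3e MKT1e, against 16.4% and 17.6%. In MKT1e minus Ancestral 2 rose and 1 fell, against 11.8% and 8.48% of all genes. In PMA1e MKT1e minus Ancestral 0 rose, against 14.3%, and 1 fell, against 7.32%, the helicase gene PRP43 at -0.26 ± 0.05 (adjusted p = 0.0051).

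Of 14 regulators of ribosomal protein and ribosome assembly genes, 1 rose in MDS3e minus Ancestral, 5 rose and 1 fell in MDS3e MKT1e minus Ancestral, 2 rose in MKT1e and 1 in PMA1e MKT1e. Of all genes 14.5% rose in MDS3e, 21.9% rose and 16.7% fell in MDS3e MKT1e, 11.8% rose in MKT1e and 14.3% in PMA1e MKT1e, so the counts in MDS3e, MKT1e and PMA1e MKT1e are near or below those shares. TOD6, a repressor of ribosome assembly genes acting downstream of TOR, was higher in every strain with an evolved allele: 0.79 ± 0.08 with MDS3e and MKT1e (adjusted p = 5.9e-05), 0.52 ± 0.08 with MKT1e (adjusted p = 0.0015), 0.46 ± 0.08 with MDS3e (adjusted p = 0.0042) and 0.35 ± 0.08 with PMA1e and MKT1e (adjusted p = 0.013). These 4 values share the Ancestral arrays. SCH9, the kinase that passes on the TOR signal, rose by 0.30 ± 0.06 in MKT1e (adjusted p = 0.0070). DOT6, the partner repressor of TOD6, fell in MDS3e MKT1e by 0.21 ± 0.07 (adjusted p = 0.039). IFH1, the coactivator of ribosomal protein promoters, rose there by 0.21 ± 0.07 (adjusted p = 0.042) and was at 0.12 without a call after quantile normalization.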

How the data were processed

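Total RNA of 10 yeast cultures was hybridised to Affymetrix arrays. The authors deposited 1 intensity value per probe set and array, on a linear scale; Affymetrix Expression Console is named in the submitters' processing notes, without version; the sources used here name neither algorithm nor scaling. No count or depth underlies such values, so the number of arrays limits the precision.

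Probe sets were named through the platform annotation with symbols updated from RefSeq: of 10928, 5498 named 1 S. cerevisiae gene, giving 5449 genes after taking the brightest probe set of each. Values were taken as log2(intensity + 16) and fitted with limma 3.58.1 in R 4.3.3, 1 mean per genotype over all 10 arrays, with two-sided moderated tests. No batch is given in the labels or headers. A minus B values were fitted likewise over 52 pairs. The scripts were tested on simulated data. Alternatives were other scalings (median centring, quantile, cyclic loess), pseudocounts of 1 and 64, a background filter, other probe set rules, trended and robust variances, only the compared genotypes, a replicate block and leaving out each array.

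Every member could be named; given in full were the 5 largest falls and rises against Ancestral, pairs with opposite calls or called by the F-test, single-copy members, calls kept under all scalings, the evolved genes, and up to 4 called genes of each list. RPS22A, RPS10B and RPS10 were named beyond this, after their values were seen. Members and lists were chosen with earlier results of these data known. Sequences were not used here. Some members are counted but not described: their own values are not reported here.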

Additional observations from a re-analysis of the deposited data

How the results depend on the processing

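With 2 arrays per genotype and a bright end that differs between arrays, scaling set most of the counts of RPS genes called. Median centring gave 1 lower member in MKT1e minus Ancestral (RPS19A), against 11.7% of all genes. It gave 0 higher in MDS3e MKT1e minus Ancestral, against 14.4% of all genes. In PMA1e MKT1e minus Ancestral it gave 12 lower, and the share of all genes lower was 14.4%, up from 7.32% as deposited. Quantile normalization gave 2 higher and 2 lower in MDS3e, 3 and 1 in MDS3e MKT1e, and 0 lower in PMA1e MKT1e, each against Ancestral, 3 and 1 in MDS3e MKT1e minus MKT1e, and 9 by the F-test, and it turned the medians to 0.0051, 0.020 and 0.023 in the 3 comparisons of the MDS3 allele. Cyclic loess gave 2 and 2, 3 and 2, 0 lower, 2 and 4, and 12 by the F-test. The cause was not tested. A pseudocount of 1 gave 0 higher in MDS3e MKT1e and 2 lower in PMA1e MKT1e, and one of 64 gave 1 higher in MDS3e and 2 higher in MDS3e MKT1e. Trended and robust variances gave 2 higher in MDS3e MKT1e. Shares of all genes are not given here for the pseudocounts, for these variances or for the next fits. Fits of only the compared genotypes, which have fewer arrays, gave 17 lower in MDS3e, 0 higher in MDS3e MKT1e, 1 lower in PMA1e MKT1e, and 1 higher in MDS3e MKT1e minus MKT1e.

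Leaving out 1 array at a time gave 9 (without MDS3e replicate 1) to 32 lower members in MDS3e, 22 (without MDS3e MKT1e replicate 2) to 38 in MDS3e MKT1e, 16 (without MKT1e replicate 2) to 34 in MDS3e MKT1e minus MKT1e, 0 to 8 in PMA1e MKT1e and 0 to 3 in MKT1e. Higher members numbered 0 to 2 in each of MKT1e, MDS3e, MDS3e MKT1e and MDS3e MKT1e minus MKT1e. The F-test gave 32 to 40 members and 3 (without MDS3e MKT1e replicate 2) to 7 pairs. Called in all of these fits were 8 of 30 in MDS3e, 19 of 37 in MDS3e MKT1e, 14 of 32 in MDS3e MKT1e minus MKT1e and 0 of 6 in PMA1e MKT1e. Where this left 1 array of a genotype, its spread was assumed to be that of the others. The shares of all genes called in these fits are not given here.

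Replicate numbers were shared between genotypes. Over all genes the deviations of same-numbered arrays correlated at -0.20 to 0.39 between genotypes, so the numbers were not taken as pairing. Over the RPS members alone the correlations ran from -0.65 (MDS3e and MDS3e MKT1e) to 0.72 (Ancestral and MKT1e). With the replicate block, 1 member was lower in MKT1e minus Ancestral and 1 higher in MDS3e MKT1e minus MKT1e. The shares of all genes with the block are not given here. With it, 16 of the 16 named results kept their call. Of those 16, 4 kept it under quantile normalization and 5 under cyclic loess, and 0 reversed.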
